A study of Mus musculus with 8 samples.

Results

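Ly6Chi cells sorted from the lamina propria of the inflamed mouse colon were set against Ly6Chi monocytes sorted from the spleen of mice with the same colitis, to describe what these cells carry more and less of once they are in the gut. The comparison takes 2 of the 8 arrays of the series and subtracts the deposited log2 intensity of the splenic array from that of the colonic array, gene by gene. Genes were kept if the array in which they were brighter showed them no lower than the midpoint of its probe sets (median log2 level 5.86 for the colonic and 5.80 for the splenic array), which left 10083 of the 19938 genes measured. Levels below are log2 intensities, differences are log2 differences of colonic minus splenic cells, and "higher" or "lower" in a count means at least 2-fold, that is a log2 difference of 1 or more, or of -1 or less. The last differences on each side of that line were 1.0007 (counted) and 0.99982 (not counted).

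The colonic array held CX3CR1int Ly6Chi cells (intermediate CX3CR1 reporter signal, high Ly6C) and the splenic array held Ly6Chi monocytes, and the labels place both at day 4 of colitis evoked by Dextran Sodium Sulphate (DSS), an agent that injures the colonic epithelium. All groups were C57BL/6 mice of genotype Cx3cr1gfp/+, in which 1 copy of Cx3cr1 is replaced by green fluorescent protein, so no array comes from mice with the gene intact on both copies. Both of these arrays are labelled male, and Xist was at 4.57 in colonic and 4.58 in splenic cells, with the Y-linked Eif2s3y at 10.29 and 10.43. The other arrays of the series serve as context: CX3CR1int Ly6Clo and CX3CR1hi F4/80hi cells from the inflamed colon, 3 CX3CR1hi macrophage arrays from the steady-state colon (1 labelled F4/80hi, 1 resident and 1 resident and monocyte-reconstituted), and 1 array of steady-state splenic Ly6Chi monocytes. That last array is labelled female and had Xist at 10.04 together with Eif2s3y at 10.28. Each group had 1 array, so no difference below has a replicate check, a standard deviation or a p-value. The labels give neither the number of mice behind an array nor the age of the animals.

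Ly6Chi monocytes leave the bone marrow through the receptor CCR2, circulate and are held in reserve in the spleen, and enter tissues in steady state and in inflammation. In the healthy gut they mature stepwise into CX3CR1hi macrophages that take up debris, make IL-10 and respond weakly to bacterial products. In colitis they accumulate in the lamina propria, where they are known as producers of IL-1, IL-6, IL-23 and TNF, and a part of their descendants takes on features of migratory antigen-presenting cells. Ly6c1 and Ly6c2, which encode the sort marker, share their probe sets on this array, so neither was analysed here.

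Of the 10083 genes, 987 (9.79%) were higher in colonic Ly6Chi cells and 398 (3.95%) were lower. Each list count below is to be read beside these shares. With the filter at the 75th percentile instead, 444 genes were higher and 225 lower. The gains were also larger than the losses. At 4-fold, 394 genes were higher and 26 lower, at 8-fold 165 and 3, and at 16-fold 60 and 0. All 20 epithelial markers, taken up below, were among the 394, with a lowest difference of 2.41. Probe sets without a single gene symbol went the other way at 2-fold, with 251 of 7677 higher and 604 lower. The median difference over all genes was -0.13 and the SD over genes was 0.864. For scale, the colitis and the steady-state splenic arrays, which carry the same population name, differed with an SD of 0.251 over 9469 genes; 65 of those genes (0.686%) were higher in colitis and 2 (0.0211%) were lower. The plot of both arrays shows the asymmetry as a wide cloud above the diagonal and a narrow one below it.

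**Figure D1:**
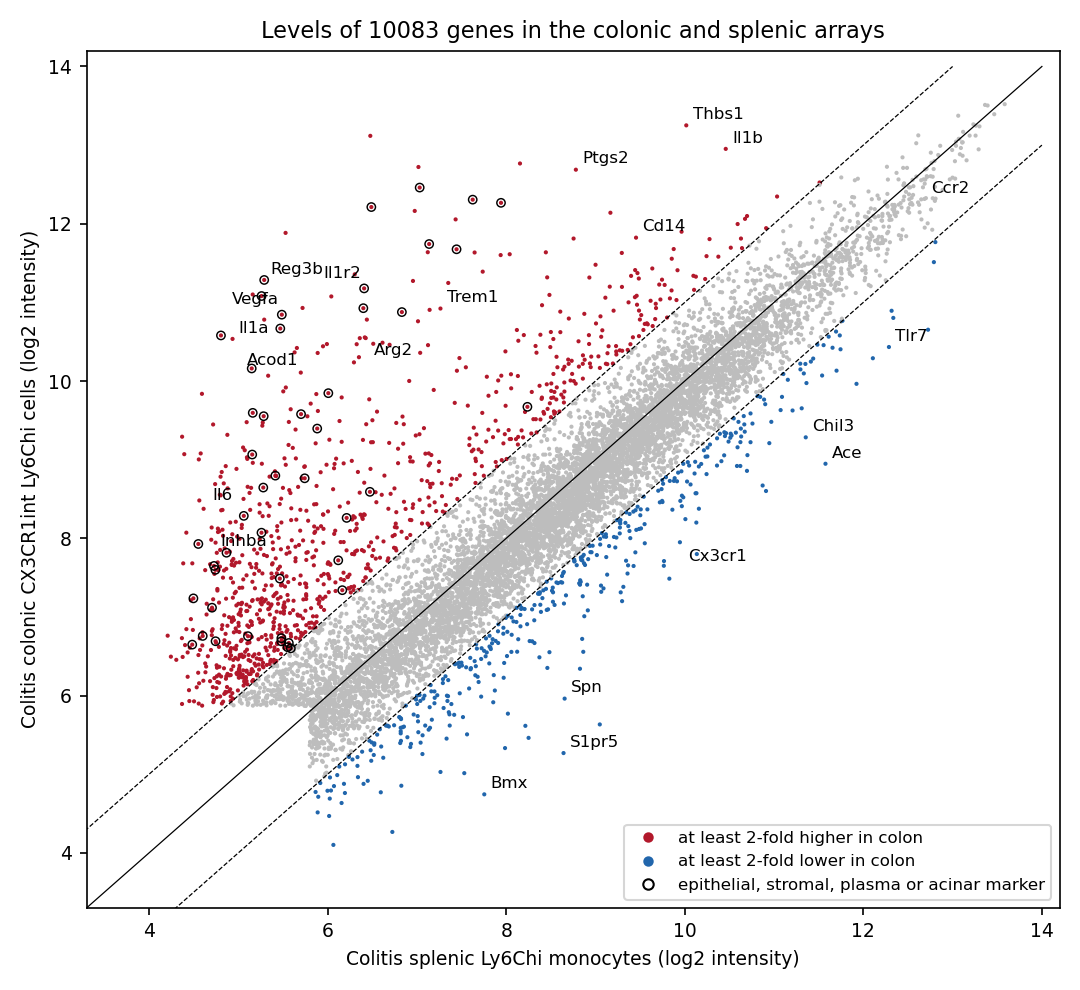
Log2 intensity of 10083 genes in colitis colonic CX3CR1int Ly6Chi cells (vertical axis) against colitis splenic Ly6Chi monocytes (horizontal axis), 1 array each. Red points are the 987 genes at least 2-fold higher in the colonic array, blue points the 398 at least 2-fold lower, dashed lines mark 2-fold, and ringed points are markers of epithelial, stromal, plasma or pancreatic acinar cells.

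Genes that mark other cells were among those higher in the colonic array. All 20 epithelial markers were higher, with a median difference of 4.25; Krt19, an epithelial keratin, was at 10.67 in colonic against 5.47 in splenic cells, and Reg3b, a secreted antimicrobial lectin of gut epithelium, at 11.29 against 5.29. The mean of the epithelial list was 10.11 in colonic Ly6Chi cells, 9.60 in colonic Ly6Clo cells, 11.08 in colitis CX3CR1hi cells, 5.94 in colitis splenic and 4.94 in steady-state splenic monocytes. The high level was shared by these colonic sorts, and the colitis splenic array stood above its steady-state counterpart. Of 7 plasma cell markers 6 were higher (median 2.92), and their mean was 9.64 in colonic Ly6Chi cells, 7.87 in Ly6Clo, 8.66 in CX3CR1hi cells and 6.54 in splenic monocytes. The immunoglobulin joining chain Jchain was at 12.46 against 7.03 in splenic cells, and the IgA heavy chain Igha at 12.21 against 6.49. All 13 measured genes of pancreatic acinar cells were higher (median 2.74), with a list mean of 7.90 in colonic Ly6Chi cells, 5.23 in Ly6Clo cells, 7.54 in CX3CR1hi cells and 5.26 in splenic monocytes. Stromal genes past the filter were higher in 8 of 9 cases (mean of all measured members 7.46 against 5.63 in splenic cells) and endothelial genes in 6 of 6 (6.79 against 5.38). Of 10 stromal genes measured, 9 reached the array median in colonic and 3 in splenic cells. For the 9 endothelial genes measured this was 6 and 2, so the filter partly sets both counts.

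**Figure D2:**
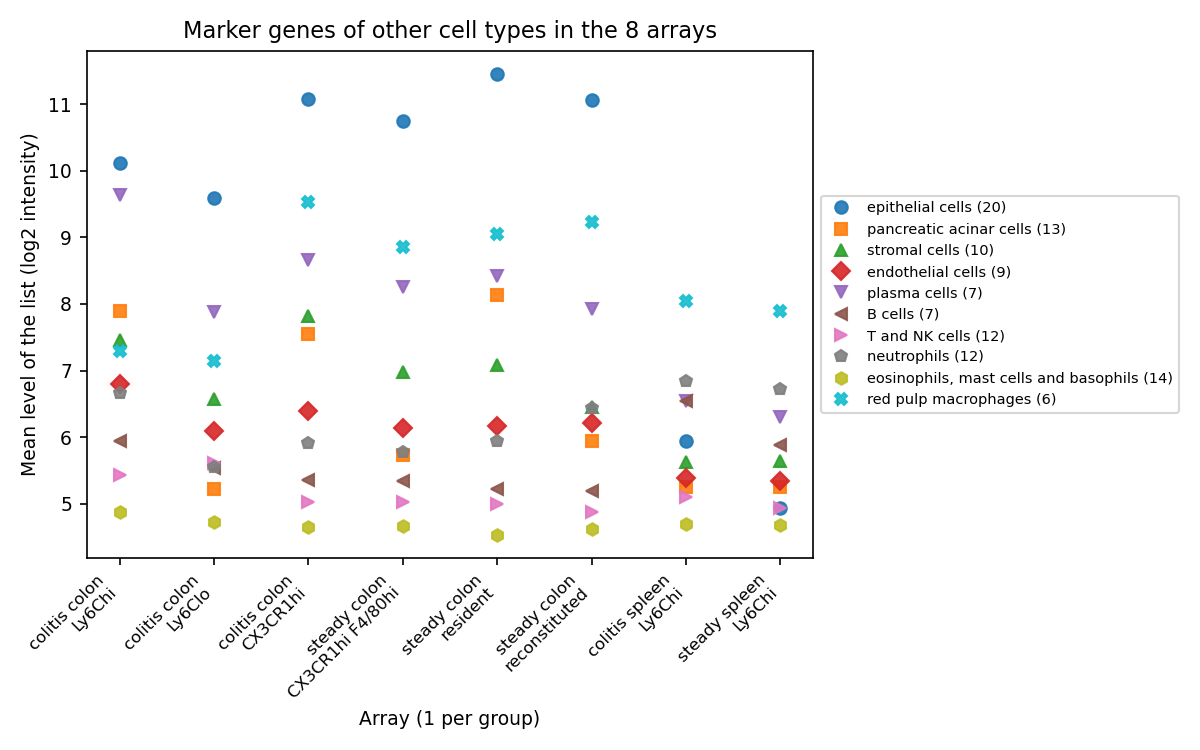
Mean log2 intensity of marker lists of other cell types in each array, colonic arrays to the left of the splenic ones. The epithelial list lies at 10.11 in colonic Ly6Chi cells and at 5.94 in colitis splenic monocytes, and the plasma cell list at 9.64 and 6.54.

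The remaining lineages gave fewer higher markers. Of 4 T and NK cell markers past the filter 2 were higher, Il7r (8.10 against 6.08 in splenic cells) and Gzmb (6.24 against 4.43). The T cell genes Cd3d and Cd3g stood at 4.38 and 4.93 in colonic cells and 4.35 and 4.69 in splenic cells, all below the array medians. Of 7 neutrophil markers past the filter 2 were higher and 4 lower. Retnlg, a neutrophil resistin-like factor, was at 8.67 in colonic against 5.88 in splenic cells and the surface antigen gene Ly6g at 6.93 against 5.24. S100a9 was at 5.17 against 5.48 and Cxcr2 at 5.28 against 5.44, and the mean of all measured neutrophil markers was 6.66 against 6.84. Of 14 eosinophil, mast cell and basophil genes 1 passed the filter, Ccr3 at 6.51 against 5.83. Among B cell markers 0 of 4 were higher and 1 lower, among plasmacytoid dendritic cell markers 0 of 4 were higher or lower, and among red pulp macrophage markers 0 of 5 were higher and 2 lower; 0 of 5 erythroid and platelet genes passed the filter. To show which differences are shared with the macrophages of the same tissue, many lists below are also counted for genes that were higher than in spleen and at least as high in colonic Ly6Chi cells as in colitis CX3CR1hi cells. Of the 987 higher genes, 361 (3.58% of the genes past the filter) met this and 626 did not; none of the 20 epithelial genes did, but all 6 higher plasma cell genes, 10 of 13 acinar, 5 of 6 endothelial and 2 of 9 stromal genes did. The part of these cells in any difference below was not tested. In sorted bulk cells, fewer cells of a type and less RNA per cell cannot be told apart.

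Most genes that name Ly6Chi monocytes lay within 2-fold in the colonic cells, but the list leaned lower than genes at large. Of 14 monocyte identity genes past the filter, 0 were higher, 3 were lower and 11 lay within 2-fold, with a median of -0.52. Over all genes past the filter 9.79% were higher and 3.95% lower, with a median of -0.13. Ccr2, the receptor for the monocyte chemoattractant CCL2, was at 12.32 in colonic Ly6Chi cells and 12.68 in splenic monocytes, while it stood at 11.09 in Ly6Clo and 10.57 in CX3CR1hi cells of the inflamed colon. Plac8, an interferon-responsive monocyte gene, was at 12.32 against 12.78 in splenic cells and Ms4a4c, a membrane-spanning gene of monocytes, at 12.47 against 12.80. The integrin subunit Itgam (CD11b) was at 11.52 against 11.57 and the M-CSF receptor Csf1r at 11.84 against 12.10. The haptoglobin gene Hp was at 10.62 in colonic and 11.18 in splenic Ly6Chi cells, with 4.44 in colitis CX3CR1hi cells. The lower members were Chil3 (difference -2.07), Mgst1 (-1.17) and Cd177 (-1.13).

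Some macrophage genes were higher in the colonic array, but they lay below their level in resident cells. Of 17 maturation genes 6 were higher and 1 lower (median 0.26), and 0 of the 6 reached the level of colitis CX3CR1hi cells. The apoptotic cell receptor Mertk was at 8.26 in colonic Ly6Chi cells against 6.30 in splenic cells, with 10.79 in CX3CR1hi cells, and its ligand Gas6 at 7.55 against 5.18, with 10.68 in CX3CR1hi cells. The tetraspanin Cd63 was at 9.49 against 6.13, and C1qb, a chain of the complement starter C1q, at 10.82 against 9.06. Dab2, an endocytic adaptor, was at 11.64 against 7.12 by the brighter of its probe sets, but the probe sets of the gene disagreed, with differences between 0.16 and 4.52. The macrophage antigen gene Adgre1 did not follow, at 10.75 against 11.53 in splenic cells. The fractalkine receptor Cx3cr1 was lower, at 7.95 in colonic Ly6Chi cells against 9.95 in colitis and 10.76 in steady-state splenic monocytes. In colitis CX3CR1hi cells it was at 11.29. The colonic cells were sorted by their CX3CR1 reporter signal, so the gates favour this order between the colonic arrays.

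Inflammatory cytokines and the enzymes that go with them were the list with the highest median among the monocyte and macrophage lists (1.61). Of 13 members past the filter 8 were higher and 0 lower, and 7 of the 8 were at least as high as in colitis CX3CR1hi cells. Of 19 measured members, 13 reached the array median in colonic and 9 in splenic cells. Members dim in spleen thus entered through the colonic array, so the filter partly sets this median and its rank. The same holds for CXC chemokines (11 and 7 of 13) and for growth and repair factors (13 and 7 of 17). CC chemokines (10 and 7 of 12) share this limit, as do the matrix and dendritic cell lists below. Il1a, an alarm cytokine of the IL-1 family, was at 10.54 in colonic against 4.93 in splenic Ly6Chi cells, a 48.5-fold difference, and at 8.24 and 10.34 in colonic Ly6Clo and CX3CR1hi cells. Il6, a pleiotropic cytokine that drives acute-phase and T cell responses, was at 8.78 against 4.80 (15.8-fold), with 7.80 in Ly6Clo and 5.57 in CX3CR1hi cells. Il23a, the subunit specific to IL-23, was at 7.74 against 4.94 (6.93-fold), and the other 6 arrays lay between 4.97 and 6.07. Both genes thus had their highest level of the 8 arrays in colonic Ly6Chi cells, as did Osm, which encodes oncostatin M (11.39 against 7.74 in splenic cells), and the prostaglandin synthase Ptgs2 (12.69 against 8.78). For Ptgs2 the colonic Ly6Clo cells were close, at 12.50, and the splenic arrays themselves differed, with 8.78 in colitis and 5.03 in steady state.

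Il1b was already bright in the spleen, at 12.95 in colonic against 10.46 in splenic cells (5.63-fold), and the other colonic arrays lay between 12.62 and 12.96. Tnf lay at the 2-fold line, at 8.91 against 7.90 (difference 1.02), and was brighter in colitis CX3CR1hi cells, at 10.14; its difference fell short of 2-fold under at least 1 alternative, as did that of Tlr2. The IL-12 subunit Il12b was at 5.23 against 5.20, below the array median, while Ly6Clo cells had 8.28. Inducible nitric oxide synthase, Nos2, was at 5.80 against 4.92 and also missed the brightness filter. The cytokine list thus held genes far higher in colonic Ly6Chi cells beside genes too dim in both arrays to enter.

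**Figure D3:**
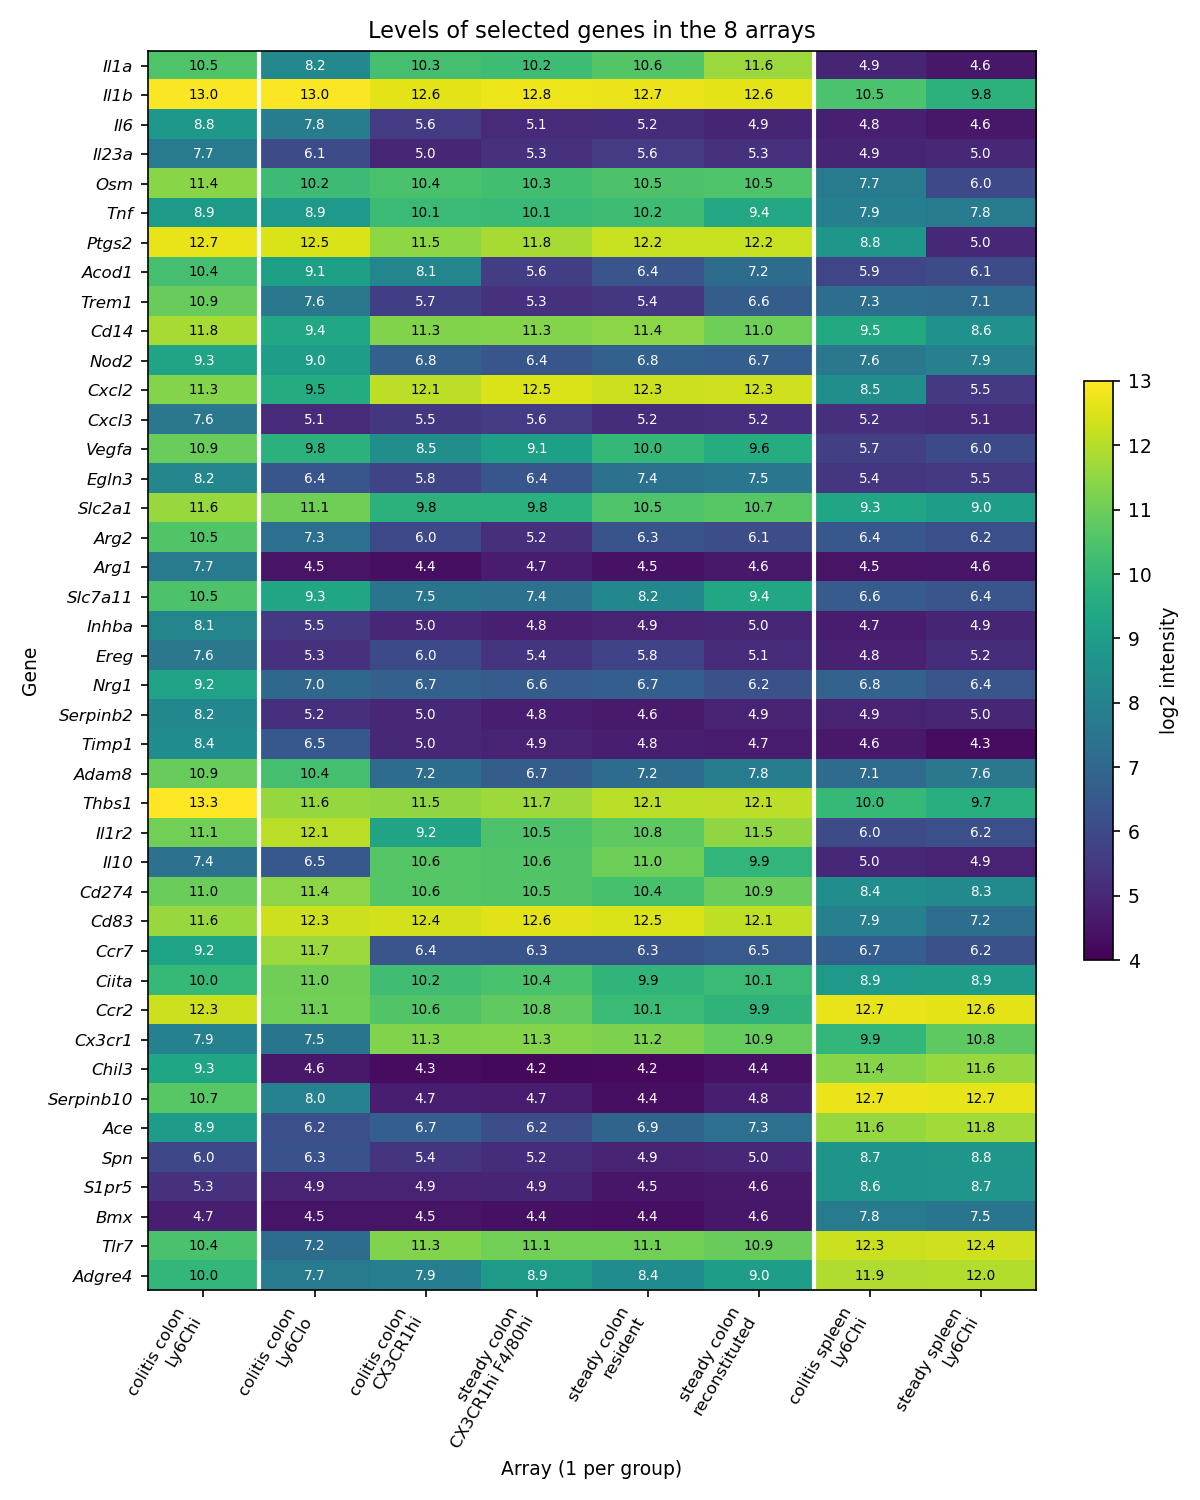
Log2 intensity of selected genes in the 8 arrays, colitis colonic Ly6Chi cells at the left and splenic monocytes at the right. Il6 (8.78), Il23a (7.74), Arg1 (7.68) and Trem1 (10.92) had their highest level in colonic Ly6Chi cells, and Spn, Ace and Bmx stood lower in all colonic arrays than in both splenic ones.

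Receptors that sense bacteria differed gene by gene. Of 26 pattern recognition and inflammasome genes 8 were higher and 2 lower, with a median of 0.13, beside 9.79% higher and 3.95% lower over all genes. Among the 8, 7 were at least as high as in CX3CR1hi cells. Neutrophils also express several of them. Of 7 neutrophil markers 2 (Retnlg and Ly6g) were higher and 4, among them Mmp8 and S100a8, lower, and their part in these differences was not tested. Trem1, which amplifies Toll-like receptor signals, was at 10.92 against 7.26 in splenic cells (12.6-fold), and at 7.60 and 5.67 in colonic Ly6Clo and CX3CR1hi cells. Cd14, the co-receptor that passes lipopolysaccharide to TLR4, was at 11.82 against 9.45, and Nod2, the intracellular sensor of muramyl dipeptide, at 9.27 against 7.59. The C-type lectin Clec4d was at 9.81 against 7.80 and its relative Clec4e at 12.10 against 10.70, with 7.34 for Clec4e in CX3CR1hi cells. The inflammasome sensor Nlrp3 was at 10.38 against 9.23. Tlr2 was at 10.70 against 9.64 (difference 1.06), Tlr4 at 9.48 against 9.05, and Tlr7, the endosomal receptor for single-stranded RNA, was lower, at 10.43 against 12.29. Ly96, the lipopolysaccharide-binding partner of TLR4, was at 10.77 against 11.77.

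Members of the feedback arm of NF-kB, the transcription factor family downstream of these receptors, were higher, while its measured subunits stayed within 2-fold. Of 17 genes 7 were higher and 0 lower, with a median of 0.93. The 7 were Traf1 (difference 1.98), Tnip3 (1.85), Tnfaip3 (1.63), Nfkbie (1.41), Zc3h12a (1.39), Nfkbid (1.24) and Nfkbia (1.03), most of which encode inhibitors or negative regulators of the pathway. Rela, a subunit, was at 10.12 in colonic and 10.09 in splenic cells, and Rel at 12.18 against 11.79. Relb was at 8.42 against 7.48.

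Promoters were read for an NF-kB motif, since several of the higher genes are textbook targets of that factor. The kappa-B consensus, with 1 position free to be any base, was searched on both strands in RefSeq promoters (build GRCm38.p6) that run 250 bases upstream to 50 bases downstream of the start. This form was found in 7 of 729 higher genes that have a promoter in the table (0.960%), in 0 of 307 lower genes, in 43 of 8122 genes past the filter (0.529%) and in 126 of 27025 promoters in all (0.466%). The windows below show 6 of the 7 matches, the match in capitals (on the other strand in Gbp5 and Nfkbia), each read 5′ to 3′ along the gene's own strand and each lying upstream of the start; they are the chemokine, cytokine and feedback genes named here and the guanylate-binding protein gene Gbp5.
Il6, chr5:30013045-30013104, plus strand: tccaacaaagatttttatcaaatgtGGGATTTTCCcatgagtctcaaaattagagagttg
Cxcl1, chr5:90891149-90891208, plus strand: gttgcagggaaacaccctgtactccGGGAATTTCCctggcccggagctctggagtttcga
Cxcl2, chr5:90903777-90903836, plus strand: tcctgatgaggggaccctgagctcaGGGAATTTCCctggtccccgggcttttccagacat
Cxcl3, chr5:90786003-90786062, plus strand: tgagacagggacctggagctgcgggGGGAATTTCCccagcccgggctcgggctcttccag
Gbp5, chr3:142496832-142496891, plus strand: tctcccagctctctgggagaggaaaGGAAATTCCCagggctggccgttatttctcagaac
Nfkbia, chr12:55492648-55492701, minus strand: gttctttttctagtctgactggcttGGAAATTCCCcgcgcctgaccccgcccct

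The motif began 44 bases before the start in Il6 and between 97 and 71 bases before it in Cxcl2, Cxcl3 and Cxcl1. The differences of these genes were 3.98 for Il6, 2.86 for Cxcl2, 2.36 for Cxcl3, 1.39 for Gbp5, 1.07 for Cxcl1 and 1.03 for Nfkbia. The match not shown, in Stap2 (difference 1.72), crosses the start, with 5 of its bases past it. The interferon-stimulated response element core was found in 34 of 729 higher genes (4.66%), 14 of 307 lower genes (4.56%) and 328 of 8122 genes past the filter (4.04%). A match is a description of letters in these windows.

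Chemokines were higher across most of the CXC family. Of 11 CXC members past the filter 10 were higher and 0 lower (median 1.53), though 3 of the 10 were at least as high as in CX3CR1hi cells. Cxcl2, a neutrophil attractant, was at 11.32 in colonic against 8.46 in splenic Ly6Chi cells, and the CX3CR1hi cells had 12.11. Cxcl3, its close relative, was at 7.59 against 5.23 while the remaining arrays lay between 5.08 and 5.59. The interferon-inducible T cell attractants Cxcl9, Cxcl10 and Cxcl11 differed by 1.54, 1.53 and 1.94. Of 10 CC chemokines 5 were higher and 0 lower (median 0.95), among them Ccl4 (8.80 against 6.64), Ccl7 (7.82 against 5.76, with 11.40 in CX3CR1hi cells) and Ccl5 (10.17 against 8.57). Ccl2, the ligand of CCR2, was at 9.22 against 9.17.

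Many genes of hypoxia and glycolysis were higher, and those stood at or above their level in the macrophages of the inflamed colon. Of 24 members 13 were higher and 0 lower (median 1.05), and all 13 were at least as high as in colitis CX3CR1hi cells. Vegfa, the hypoxia-inducible angiogenic factor, was at 10.93 against 5.72 in splenic cells (37.0-fold), and at 9.79 in Ly6Clo and 8.46 in CX3CR1hi cells. Egln3, a prolyl hydroxylase that senses oxygen and is itself induced by hypoxia, was at 8.15 against 5.43, and Ankrd37 at 7.29 against 5.76. The glucose transporter Slc2a1 was at 11.63 against 9.29, the lactate exporter Slc16a3 at 10.44 against 9.15 with 6.73 in CX3CR1hi cells, and the glycolytic enzymes Hk2, Pfkl and Pfkp differed by 1.16, 1.36 and 1.28. The regulator itself, Hif1a, was at 12.35 against 11.03. Respiratory chain genes lay close together: 0 of 24 were higher or lower, their differences ran between -0.59 and 0.28, and their median was -0.02.

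Both arginase genes were higher. Of 10 genes of the arginase and chitinase-like list, which also holds amino acid transporters, 8 were higher and 1 lower (median 1.54). Arg1, the cytosolic arginase, was at 7.68 in colonic Ly6Chi cells against 4.48 in splenic cells (9.17-fold), and at most 4.72 in the other 6 arrays. Arg2, the mitochondrial arginase, was at 10.55 against 6.43 (17.4-fold), with 7.29 in Ly6Clo and 6.00 in CX3CR1hi cells. The cystine-glutamate exchanger Slc7a11 was at 10.49 against 6.61. Outside the list, Acod1, which makes the antibacterial metabolite itaconate, was at 10.36 against 5.89 (22.1-fold) and had its highest level of the 8 arrays here. Chil3, a chitinase-like protein used as a marker of alternative activation and of Ly6Chi monocytes, went the other way, at 9.28 against 11.35, and stood at or below 4.60 in the other 5 colonic arrays.

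Of 13 growth and repair factors 7 were higher, 6 within 2-fold and 0 lower (median 1.41). Inhba, the activin A subunit, was at 8.14 against 4.70 in splenic cells, and the other 6 arrays lay between 4.78 and 5.49. The EGF receptor ligand Ereg was at 7.59 against 4.84, Hbegf at 8.29 against 5.34, and the ERBB ligand Nrg1 at 9.20 against 6.85. Of 24 genes of matrix, proteases and coagulation 11 were higher, 12 within 2-fold and 1 lower (median 0.85), beside 9.79% higher and 3.95% lower over all genes. Of 26 measured members, 24 reached the array median in colonic and 16 in splenic cells, so the filter partly sets these counts. Timp1, a tissue inhibitor of metalloproteinases, was at 8.37 against 4.61 (13.6-fold), the urokinase inhibitor Serpinb2 at 8.20 against 4.91, and the metalloproteinase Adam8 at 10.90 against 7.14, each with its highest level of the 8 arrays in colonic Ly6Chi cells. Thbs1, the matricellular thrombospondin, was at 13.25 against 10.02. Sparc (10.07 against 5.33) and Mmp2 (8.13 against 5.04), which fibroblasts make in quantity, belong to the same list, and the stromal marker Dcn stood at 11.08 against 5.26 in the same arrays. Stromal cells also make Il6, Timp1, Inhba and Nrg1. The stromal list averaged 7.46 in colonic Ly6Chi cells and 5.63 in splenic cells. The part of stromal cells in these differences was not tested. Mmp8, the neutrophil collagenase, was lower, at 9.22 against 10.74.

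Among 14 scavenger and anti-inflammatory members, 7 were higher, 0 lower and 7 within 2-fold (median 0.92, which became -0.0163 with a brightness filter at the 75th percentile), and 3 of the 7 were at least as high as in CX3CR1hi cells. Il1r2, the decoy receptor for IL-1, was at 11.08 against 6.04 in splenic cells (32.8-fold), and Il1rn, the IL-1 receptor antagonist, at 10.59 against 8.38. Socs3, a feedback inhibitor of IL-6 signalling, was at 11.06 against 9.11. Il10 was at 7.37 in colonic Ly6Chi cells against 5.04 in splenic cells, below the 10.63 of CX3CR1hi cells. The scavenger receptors Mrc1 (10.58 against 8.20) and Stab1 (8.34 against 6.00) also lay below CX3CR1hi cells, at 12.39 and 12.09.

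Of 10 MHC class II genes 1 was higher and 0 lower, beside 9.79% higher over all genes (median 0.53): the class II transactivator Ciita, at 10.03 against 8.86 in splenic cells. H2-Ab1 was at 12.55 against 11.90. Of 11 costimulation genes 7 lay within 2-fold, 0 were lower and 4 were higher (median 0.73). The 4 were Cd83 (11.60 against 7.94), the inhibitory ligand Cd274 (10.96 against 8.40), Cd86 (11.20 against 9.16) and Cd80 (11.20 against 9.30). Each was brighter in Ly6Clo cells, at 12.30, 11.42, 11.47 and 11.25 in that order, and 2 of the 4 were at least as high as in CX3CR1hi cells. Tnfsf9, the 4-1BB ligand, was at 10.24 against 6.29.

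The dendritic cell list was mixed. Of 15 members 8 were higher and 0 lower (median 1.05). Of 17 measured members, 15 reached the array median in colonic and 11 in splenic cells, so the filter partly sets this median. Ccr7, which guides cells to lymph nodes, was at 9.21 in colonic Ly6Chi cells against 6.69 in splenic cells, with 11.66 in Ly6Clo cells. Fscn1, an actin-bundling protein of mature dendritic cells, was at 7.22 against 5.25, with 11.29 in Ly6Clo cells. The growth factor receptor Flt3 was at 9.03 against 8.80, and Zbtb46, a transcription factor that defines conventional dendritic cells, stood at 4.67 against 4.45, below the array median in both, with 6.86 in Ly6Clo cells.

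Among transcription factors, 8 of 23 lineage genes were higher and 1 was lower (median 0.42), beside 9.79% higher and 3.95% lower over all genes. Id3 (7.99 against 5.01), Bhlhe40 (10.51 against 8.14), Prdm1 (10.85 against 8.87, a gene that plasma cells also express), Fosl2 (11.41 against 9.44), Runx3 (11.37 against 9.47) and Cebpb (10.93 against 9.68) were among the higher ones. Cebpa, the myeloid lineage factor, was the lower one, at 8.37 against 9.51. The master regulator of myeloid cells Spi1 was at 11.96 against 12.29 and the monocyte factor Irf8 at 10.75 against 10.77. Immediate early and heat shock genes are induced rapidly by a stimulus or by handling of cells. Among 25 of them 12 were higher and 1 was lower (median 0.66). Nr4a3 (9.32 against 4.88) and Nr4a2 (10.46 against 6.69) differed most, Fos was at 11.88 against 11.58, and Hspa1a at 12.06 against 10.67. Of the 12, 5 were at least as high as in CX3CR1hi cells of the inflamed colon. The part of this list in the other differences was not tested.

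Genes of patrolling monocytes, the Ly6Clo side of the blood monocyte pool, had the lowest median of the 31 monocyte and macrophage lists (-1.23). Of 13 such genes 8 were lower and 1 was higher. Spn (CD43) was at 5.96 in colonic against 8.65 in splenic Ly6Chi cells, 6.47-fold lower. Ace, angiotensin-converting enzyme, was at 8.95 against 11.58, and the adhesion receptor gene Adgre4 at 9.96 against 11.92. The nuclear factors Pou2f2 and Klf2 were lower by differences of -1.37 and -1.23, and the integrin Itgal (CD11a) was at 10.29 against 11.44. Nr4a1, on which patrolling monocytes depend, did not follow, at 12.09 against 11.69, and Cd9 was higher, at 8.15 against 5.85. In steady-state splenic monocytes Spn was at 8.78 and Ace at 11.76.

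The largest single losses lay largely outside the lists. S1pr5, a sphingosine-1-phosphate receptor that steers cells out of bone marrow and lymph nodes, was at 5.27 against 8.64 (10.4-fold lower). Bmx, a Tec family kinase, was at 4.74 against 7.75 (8.06-fold lower), and Abca6, a lipid transporter gene, at 5.46 against 8.25. In the other colonic arrays S1pr5 lay between 4.54 and 4.94, Bmx between 4.38 and 4.57 and Abca6 between 4.32 and 4.74. Rasgrp2, which activates the integrin switch Rap1, was at 7.71 against 9.77, and the prostacyclin receptor Ptgir at 6.35 against 8.46. The lipoprotein lipase Lpl was at 7.01 against 8.87, and Serpinb10, a myeloid serpin, at 10.65 against 12.72 while CX3CR1hi cells had 4.74. Of the 398 lower genes 63 (15.8%) had their lowest level of the 8 arrays in colonic Ly6Chi cells, a count that their choice favours. Among all 10083 genes past the filter, 1206 (12.0%) had their lowest level there.

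Most genes of the antiviral, Fc receptor, lysosomal and cell cycle lists lay within 2-fold, as did most genes at large. Over all genes past the filter 9.79% were higher and 3.95% lower, with a median of -0.13. Of 22 interferon-stimulated antiviral genes 0 were higher and 1, Cmpk2, was lower (median -0.14), and Irf7 was at 10.63 against 10.90. Of 7 Fc receptor genes 0 were higher or lower (median 0.14), and Fcgr1 (CD64) was at 10.52 against 10.38. Of 23 lysosomal genes 1 was higher, the protease Ctsl, and 1 lower, the acid lipase Lipa (median -0.22). Of 27 cell cycle genes 2 were higher, Mki67 (9.38 against 8.03) and Tyms (7.62 against 6.46, under 2-fold in at least 1 alternative), and 0 lower (median 0.40). Of 10 interferon gamma response genes 3 were higher and 0 lower (median 0.44), led by the GTPases Iigp1 (8.20 against 5.48) and Gbp5 (10.27 against 8.88).

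**Figure D4:**
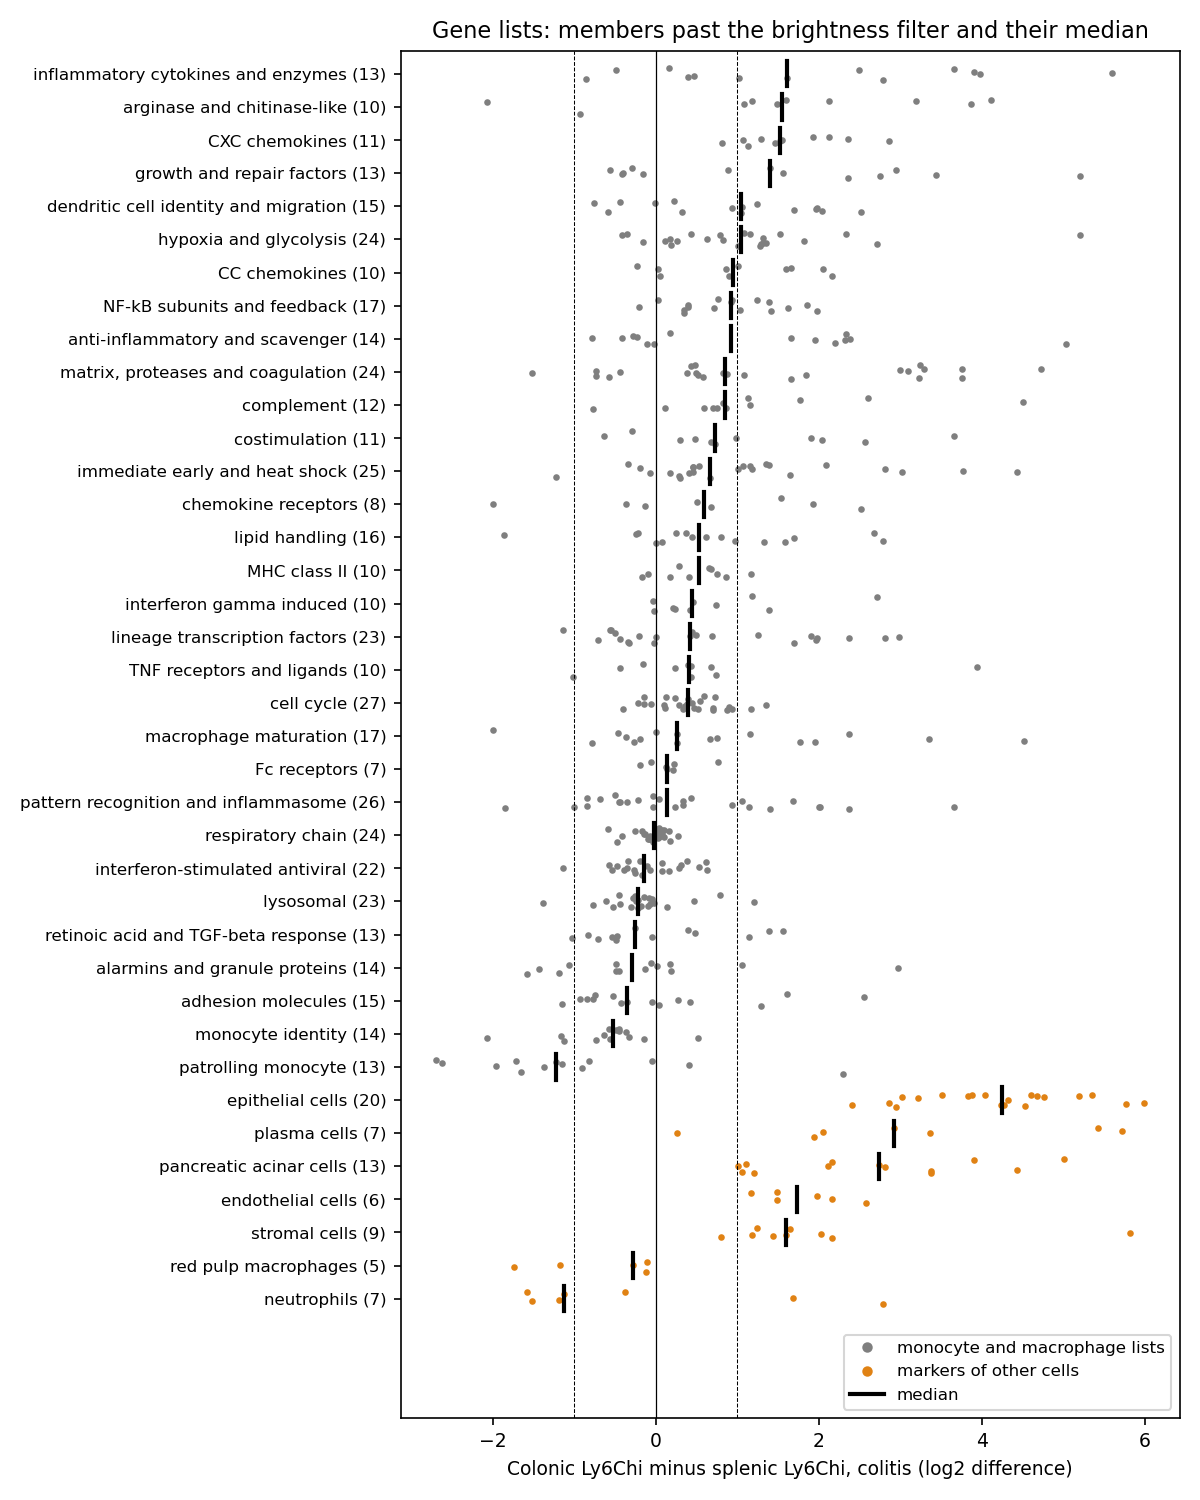
Log2 difference of colonic minus splenic Ly6Chi cells for each list member past the brightness filter (points) with the list median (black bar), the number of members in brackets, and dashed lines at 2-fold. Cytokines (median 1.61) lie at the top of the monocyte and macrophage lists and patrolling genes (median -1.23) at the bottom, with markers of other cells, in orange, below them.

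The remaining lists showed smaller or divided differences, to be read beside 9.79% higher, 3.95% lower and a median of -0.13 over all genes. Of 12 complement genes 5 were higher and 0 lower (median 0.85), 0 of them at the level of CX3CR1hi cells, with the C3a receptor C3ar1 at 11.09 against 8.48. Serping1, the C1 inhibitor, was at 9.08 against 4.58. Of 16 lipid genes 5 were higher and 1, Lpl, lower (median 0.53), among them the cholesterol exporter Abca1 (10.13 against 7.45) and the oxidised lipoprotein receptor Olr1 (8.38 against 6.68). Of 8 chemokine receptors 3 were higher, namely Ccr7, Ccrl2 (11.90 against 9.96) and Ccr1 (10.47 against 8.93), and 1, Cx3cr1, was lower (median 0.60). Of 15 adhesion genes 3 were higher and 1 lower (median -0.35), and Itga6 (8.01 against 5.45) was the furthest. Among 14 alarmins and granule proteins 2 were higher and 4 lower (median -0.29), with S100a8 at 5.34 against 6.93. Of 10 TNF family genes 1 was higher and 1 lower (median 0.41), and of 13 retinoic acid and TGF-beta genes 3 were higher and 1 lower (median -0.26, and 0.0375 with no brightness filter).

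Set against all 8 arrays, 214 of the 987 higher genes (21.7%) had their highest level in colonic Ly6Chi cells. The choice of genes higher in this array favours that count. Among all 10083 genes past the filter, 924 (9.16%) had their highest level there. Il6, Il23a, Osm, Ptgs2, Vegfa, Arg1, Arg2, Trem1, Cd14, Nod2, Timp1, Inhba, Serpinb2, Acod1, Tgm2 and Slc7a11 were among the 214. Some margins were narrow: Ptgs2 was at 12.69 against 12.50 in Ly6Clo cells, and Nod2 at 9.27 against 8.99. Others were wide, as for Arg1, at 7.68 against at most 4.72 in the other arrays. Il1a, Il1r2, Cxcl2, Cd83 and Il10 were higher than in spleen but were exceeded by at least 1 other colonic array. Measured against each splenic array in turn, 929 of the 987 higher genes and 328 of the 398 lower genes were at least 2-fold apart in the same direction.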

How the data were processed

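RNA of sorted cells was hybridised to Affymetrix Mouse Gene 1.0 ST arrays. Per the submitters' processing notes, RMA and Partek were used; versions are not given in the sources used here. The deposited values are log2 intensities, normalized by the authors, for 35399 probe sets; their unit shows from the values, which run from 3.37 to 14.3 with array medians between 5.77 and 5.87. The platform annotation gives 1 gene symbol for 21789 probe sets, several for 1621 and none here for 11989; 21698 were matched to RefSeq and 0 symbols changed. Where a gene had several probe sets, the one with the highest mean over the 8 arrays was used.

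From these values the differences, fold changes, counts and medians were computed in Python 3.11.15 with numpy 2.4.6 and pandas 2.3.3, and figures were drawn with matplotlib 3.10.9. The steps were tested on simulated data. With 1 array per group there was no test. RMA pulls low intensities together, so a fold change from a dim gene understates the change.

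Genes for the text were selected as the 20 largest differences each way past the filter and a set of preset genes. Also selected were the 20 largest positive ones among genes at least as high as in colitis CX3CR1hi cells. Up to 5 members of each of 43 lists with the largest difference were added. Not all selected genes are printed. Large gains left out include the epithelial markers Reg3g, Zg16, Agr2 and Car1 and the acinar gene Ctrb1. Large losses such as Galnt9 are also left out. The largest differences skip predicted genes, olfactory and vomeronasal receptors, small RNAs, histones and segments of antigen receptors. Other list members were named for their role after their values were seen. The comparison and the lists were chosen with earlier results of these data known. Of 689 list genes 635 were measured. Alternatives changed the filter, the probe set rule, the scaling, the splenic array and the fold.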

Additional observations from a re-analysis of the deposited data

Results flagged for a closer look

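The comparison by gene leaves out probe sets that the annotation lists with several gene symbols or with none. Among 7677 such probe sets past the same brightness filter, 251 (3.27%) were at least 2-fold higher in colonic Ly6Chi cells and 604 (7.87%) at least 2-fold lower. That is the opposite order to the genes with 1 symbol, of which 9.79% were higher and 3.95% lower. The probe sets carry no single gene name here, so no identity is given for them.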

How the results depend on the processing

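Of the 240 genes selected for naming, not all of them printed, 182 were at least 2-fold apart. All 182 kept their direction under the alternatives run on single genes, which changed the probe set rule, the scaling and the splenic array. Most were selected for large differences in this same comparison, which favours that count. Of the 182, 171 also stayed at least 2-fold apart, and the exceptions were Ccl3, Fcer2a, Irf1, Ngp, Slpi, Tgfbr1, Tlr2, Tnf, Tnfsf13b, Tyms and Vcam1. The counts of 987 higher and 398 lower genes became 444 and 225 with a filter at the 75th percentile, which tests fewer genes, and 394 and 26 with a 4-fold line. Asking also for a level at or above that of colitis CX3CR1hi cells, an alternative added after the data were seen, left 361 higher genes. Under no filter, probe sets averaged by gene, median centring, quantile scaling, and the steady-state or the mean splenic array the counts ran from 931 to 1080 higher and from 359 to 487 lower. The median over all genes, -0.13, ran from -0.19 with centring to -0.03 with no filter. The list medians that changed sign were retinoic acid and TGF-beta response with no filter (0.0375, against -0.26), anti-inflammatory and scavenger genes at the 75th percentile (-0.0163, against 0.92), and B cell markers with the steady-state splenic array (0.46, against -0.67); the cause was not tested. No paired analysis was possible because each group has 1 array and the labels carry no replicate numbers, and for the same reason no array could be left out within a group.

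The limit of these data is 1 array per group of sorted bulk cells. Tissue, sort gate and array cannot be told apart. Markers of epithelial, pancreatic acinar, plasma, stromal and endothelial cells were higher in the colonic array, and their part in the differences was not tested. Signal near the array median, such as that of Nos2, Il12b and Zbtb46, is not resolved from background.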

Other observations

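Genes outside the lists were also higher in the colonic array, and the part of other cells in them was not tested. Slc39a14, Hdc, Tnfaip6 and Saa3 are named here after their values were seen. Vdr, the vitamin D receptor, was at 10.78 in colonic against 6.44 in splenic Ly6Chi cells, and between 10.33 and 11.10 in the other colonic arrays. Tgm2, a transglutaminase that crosslinks proteins, was at 11.63 against 7.65. Serpina3n, an acute-phase protease inhibitor, was at 9.92 against 5.53, with 8.61 in Ly6Clo and 9.24 in CX3CR1hi cells of the inflamed colon. Slc39a14, a zinc and iron importer induced by IL-6 in liver, was at 8.96 against 5.16. Hdc, the enzyme that makes histamine, was at 9.15 against 5.61, with 6.57 in Ly6Clo and 5.40 in CX3CR1hi cells. Tnfaip6, a hyaluronan-binding protein induced by TNF and IL-1, was at 8.79 against 5.42, with 6.00 and 6.35 in those colonic arrays. Saa3, an acute-phase serum amyloid, was at 9.40 against 7.08. The gene with the largest difference of all, Adck1 (11.88 against 5.53), had probe sets that disagreed, with differences between -0.48 and 6.36.

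MicroRNA genes were read from probe sets on their precursors and examined after the data were seen. Of 291 measured, 60 passed the filter, 1 was at least 2-fold higher and 12 were at least 2-fold lower. The shares over all genes were 9.79% and 3.95%, and the median was -0.11, beside -0.13 over all genes. Mir142, a gene of blood cells in general, was at 5.63 in colonic against 9.05 in splenic Ly6Chi cells. Mir15a and Mir16-1 lie beside each other on chromosome 14 and both were lower, by differences of -1.62 and -1.47. Mir23a and Mir27a also lie beside each other, on chromosome 8, and were lower than in colitis spleen, but they stood at 6.56 and 6.69 in colonic cells against 6.71 and 6.93 in steady-state spleen. The one higher gene was Mir212. A precursor signal is not the amount of the mature microRNA. The mature sequences from RefSeq (GRCm38.p6) are shown for these genes with the seed, bases 2 to 8, in capitals, because miR-15a-5p and miR-16-5p share their seed.
miR-142a-5p, chr11:87756867-87756887, plus strand: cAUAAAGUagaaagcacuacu
miR-142a-3p, chr11:87756903-87756925, plus strand: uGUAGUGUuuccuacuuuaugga
miR-15a-5p, chr14:61632075-61632096, minus strand: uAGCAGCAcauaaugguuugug
miR-16-5p, chr14:61631936-61631957, minus strand: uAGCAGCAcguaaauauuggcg
miR-23a-3p, chr8:84208563-84208583, plus strand: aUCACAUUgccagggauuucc
miR-27a-3p, chr8:84208727-84208747, plus strand: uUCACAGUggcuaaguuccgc
miR-212-3p, chr11:75173443-75173464, plus strand: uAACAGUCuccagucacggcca

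Of 51 small nucleolar RNA genes measured, 49 passed the filter, 4 were higher and 0 lower, with a median of 0.29; over all genes 9.79% were higher and 3.95% lower, with a median of -0.13. A motif added after the values were seen, the AP-1 site TGANTCA on both strands, stood in the promoters of 91 of 729 higher genes (12.5%), 18 of 307 lower genes (5.86%), 530 of 8122 genes past the filter (6.53%) and 2425 of 27025 promoters in all (8.97%).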
